A study of Mus musculus with 16 samples.

Results

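Ribosomal protein genes of the cytosol and of the mitochondrion were followed in demyelinated spinal cord of the mouse. Of 46078 genes in the deposited count table, 164 protein-coding genes were chosen by symbol alone: 86 that start with Rpl or Rps and a digit or are Rplp0, Rplp1, Rplp2 or Rpsa (the cytosolic set), and 78 that start with Mrpl or Mrps and a digit (the mitochondrial set). Kinases of the Rps6k family and pseudogenes were left out. By symbol, the cytosolic set holds 52 large-subunit and 34 small-subunit genes, and the mitochondrial set 49 and 29. The rule takes in Rps19bp1, which codes for a binding partner of a ribosomal protein, and Rpl7l1, a relative of Rpl7.

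C57BL/6 mice of 8 to 12 weeks all received lysolecithin, a lipid that dissolves myelin, in the spinal cord. The 16 libraries form 4 groups of 4: exercise at day 10 (replicates 13, 17, 18 and 19), control at day 10 (2, 3, 4 and 5), exercise at day 5 (1, 2, 7 and 12) and control at day 5 (1, 2, 5 and 6). Exercise mice could run freely in a wheel, and control mice were kept with the wheel locked. Lesions were cut out by laser microdissection, and the small amount of RNA was amplified before poly(A) selection and strand-specific sequencing with 75-base single reads. Whether each library came from its own animal is not in the labels; the p-values reflect only how these libraries spread, which may be technical.

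Cytosolic ribosomes translate the mRNAs of the nuclear genome, and mitochondrial ribosomes translate only the few respiratory chain mRNAs of the mitochondrial genome. The proteins of both are encoded in the nucleus and made in the cytosol. Many mRNAs of cytosolic ribosomal proteins begin with a run of pyrimidines, the 5′ terminal oligopyrimidine (TOP) motif, through which the kinase mTOR controls their translation; in a demyelinated lesion, dividing glia, incoming macrophages and myelin-forming oligodendrocytes are all known for high protein synthesis.

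The start sites of the genes on which the results turn are shown first, since the TOP motif lies there. RefSeq (GRCm38.p6) gave a start for 66 cytosolic and 69 mitochondrial genes. Each line below runs 5′ to 3′ on the gene's strand, from 14 bases before the start to 16 bases from it. Capitals mark the longest run of C and T inside the 26 bases from 10 before to 16 from the start, so that a run may go on in lower case to the left of that window. The 5 cytosolic genes come first, then 5 mitochondrial ones.
Rps27l (chr9:66946072-66946101, plus strand): cactCCTCCCCgccgcctctatcccggaag
Rps27 (chr3:90213633-90213662, minus strand): tttccgctttcgCTCCTTTCCggcggtgac
Rps2 (chr17:24720049-24720078, plus strand): ggcagtcgagatctcgcgCTTCTTggagca
Rps15 (chr10:80292417-80292446, plus strand): ccggcagagCTCgcgataactgcgcaagcg
Rpl4 (chr9:64173373-64173402, plus strand): tcctTTTCCTgtgggagcagccgggtagag
Mrpl28 (chr17:26123489-26123518, plus strand): ggcgcacgttcggtgacgctaTTCCggttc
Mrpl18 (chr17:12916076-12916105, minus strand): ttgtagCTTTacccacagttaacatggctg
Mrpl24 (chr3:87919530-87919559, plus strand): tcctgTTTCCTgtccattttgtagcaacgg
Mrpl3 (chr9:105053254-105053283, plus strand): agtggcccggctgtgCTTTTCCTCCgcgga
Mrpl12 (chr11:120484623-120484652, plus strand): gctcgCCTCCTCCCggatagagcgtcgctt

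A run of at least 8 pyrimidines lay in that 26-base window in 31.8% of the cytosolic starts and 7.2% of the mitochondrial starts, against 9.8% of 27025 mouse starts. Over the 300 bases from 250 before to 50 from the start, on both strands, the core of ETS-family sites (CCGGAAG) was found in 37.9% of cytosolic, 36.2% of mitochondrial and 9.1% of all starts. The NRF1 core (TGCGCA) was found in 18.2%, 30.4% and 8.1% of them in the same order. The shares for the YY1 core (AAGATGG) were 13.6%, 18.8% and 6.5%, for the E-box (CACGTG) 7.6%, 7.2% and 7.2%, and for TATAAA 9.1%, 5.8% and 14.2%. The motifs were matched as letters and can overlap. Both sets thus shared the ETS core, and the long pyrimidine run was more frequent in the cytosolic set. Among the genes shown, the window held a run of 9 in Rps27, 10 in Mrpl3 and 9 in Mrpl12, but of 3 in Rps15, so the run did not follow the set in every gene. The window opens 10 bases before the start, whereas a TOP motif begins the mRNA itself. By the given starts, the runs marked in Rps27l, Rps15, Rpl4, Mrpl18, Mrpl24 and Mrpl12 end before the start and so lie outside the mRNA. The shares above thus count pyrimidine runs near the start, not TOP motifs.

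Libraries held 8.13 to 13.93 M counts. At day 5 exercise libraries held 8.13 to 10.93 M counts, all fewer than the control libraries (11.2 to 13.93 M), and the share of counts on the mitochondrial ribosomal RNA gene mt-Rnr2 was higher in exercise (10.91 to 12.94% against 8.05 to 10.28%); these cannot be told apart from exercise at day 5. Markers of the tissue were present, with oligodendrocyte markers summing to 10503 to 26980 CPM (counts divided by the effective library size in M) and neuron markers to 158 to 990, while 0 of 3 lymphocyte markers passed the filter on low counts. Between day 10 and day 5, all 10 proliferation markers were lower in both exercise (155.0 to 329.5 CPM in sum, against 459.4 to 620.1 CPM) and control (147.9 to 206.8 CPM, against 574.9 to 595.1 CPM), and of 8 oligodendrocyte markers 3 were higher in exercise and 6 in control. Of 9 neuron markers, 4 were lower at day 10 in exercise and 3 in control, and of 6 astrocyte markers 2 and 5 were higher. Of 10 macrophage and microglia markers, 5 were higher and 2 lower at day 10 in exercise, and 3 were higher and 1 lower in control, while their sums averaged 8126 CPM at day 10 against 11620 CPM at day 5 in exercise and 8107 CPM against 11200 CPM in control. Of 5 endothelium markers, 2 were lower at day 10 in exercise and none in control. The part of these shifts in the ribosome genes was not tested. In tissue, fewer cells of a type and less RNA per cell cannot be told apart.

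The filter was passed by 83 of the 86 cytosolic and 77 of the 78 mitochondrial genes. The 4 others were Rps27rt (5 counts over all libraries), Rpl3l (1 count), and Rpl10l and Mrpl53 (0 counts each). Rpl3l and Rpl10l are relatives of Rpl3 and Rpl10 known from muscle and from testis. All windows of 75 bases in Mrpl53 also occur in another gene's transcripts.

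Cytosolic ribosomal protein mRNAs were the more abundant. Per kilobase of exon, the median level was 59.6 CPM in the cytosolic set and 7.54 CPM in the mitochondrial set. Within each set the levels per kilobase spread widely, over 740-fold in the cytosolic and 117-fold in the mitochondrial set. The exon length is the one given with the deposited counts (median 1499 bases in the cytosolic and 1812 in the mitochondrial set). How well it matches the transcripts present was not tested. The proteins of a ribosome are mostly present once each, but the cytosolic span is not a spread among these alone. Its low end is held by Rpl39l, a relative, Rps19bp1, a binding partner, and Rpl24, most of whose windows are shared. The highest cytosolic levels per kilobase were those of Rpl4, which lines the exit tunnel for the growing protein (1454 CPM), Rps3a1 (786.7 CPM) and Rpl36 (727.3 CPM). The lowest were those of Rpl24 (2.07 CPM), Rps19bp1 (2.05 CPM) and Rpl39l, a relative of Rpl39 best known from testis (1.96 CPM). In the mitochondrial set the highest levels per kilobase belonged to Mrpl36 (120.3 CPM), Mrps21 (96.7 CPM) and Mrps30 (69.5 CPM), and the lowest to Mrpl33 (1.47 CPM), Mrps35 (1.22 CPM) and Mrps22 (1.03 CPM).

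Many cytosolic ribosomal protein genes have near copies in the genome, and reads that matched several places were not counted. The median cytosolic gene shared 27.3% of its 75-base windows with a transcript of another gene, and 20 of 86 shared over 50%; the median mitochondrial gene shared 0%, and 50 of 78 shared none. Rpl24, the least abundant but for Rps19bp1 and Rpl39l, shared 80.93%, yet Rpl36 was among the highest with 70.87%. Pseudogenes named for cytosolic genes, 268 in the table, took 0.567 to 0.836% of the counts of the cytosolic set per library, most of all those of Rps12, at 20.04% of the counts of Rps12 itself. How far lost reads lower the level of a gene was not tested; levels of genes with a large shared part are uncertain.

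**Figure D1:**
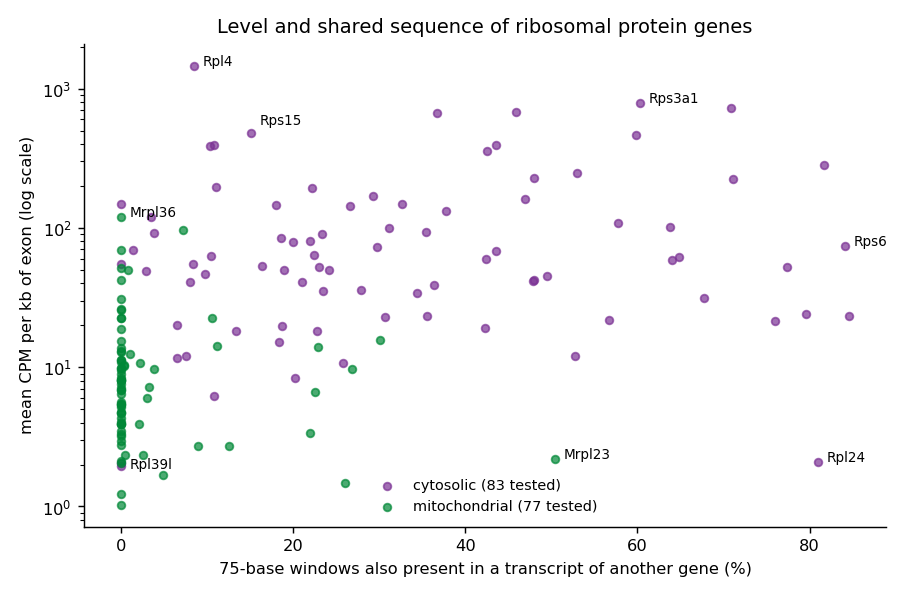
Mean CPM per kilobase of exon (log scale) against the share of a gene's 75-base windows that also occur in another gene's transcripts, 1 point per tested gene. Mitochondrial genes (green) gather at the left edge, where 50 of 78 share none, while cytosolic genes (purple) reach past 80% and include both Rpl4, high with few shared windows, and Rpl24, low with many.

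Summed over the 86 cytosolic genes, the level was 16103, 20409, 13312 and 15259 CPM in exercise at day 10 (replicates 13, 17, 18 and 19). In control at day 10 it was 13028, 14426, 17543 and 18036 CPM (2, 3, 4 and 5). At day 5 the sums were 13611, 15806, 14043 and 13547 CPM in exercise (1, 2, 7 and 12) and 14498, 14569, 14880 and 17251 CPM in control (1, 2, 5 and 6). The groups overlapped in each of the 4 pairings, and exercise replicate 17 at day 10 held the highest sum of the 16 libraries.

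The mitochondrial sum differed less between replicates. It was 1760, 1931, 1797 and 1797 CPM in exercise at day 10, against 1914, 1845, 2093 and 2010 CPM in control at day 10. At day 5 it was 1812, 2111, 1880 and 2029 CPM in exercise, against 2075, 2202, 2350 and 2267 CPM in control. Exercise libraries were the lower on average on both days, and in control the libraries of day 10 and day 5 overlapped by 1 library. The ratio of the cytosolic to the mitochondrial sum averaged 8.905 ± 1.32 in exercise at day 10, 7.995 ± 0.919 in control at day 10, 7.287 ± 0.405 in exercise at day 5 and 6.887 ± 0.552 in control at day 5 (SD, n = 4 each). The ratio was higher at day 10 on average, but replicate 18 of exercise (7.41) and replicate 2 of control (6.81) lay inside the day 5 range of their own condition. The sums weigh genes by level, as the 5 highest genes held 34.3% of the cytosolic and 28.1% of the mitochondrial summed CPM. The difference between the sets in mean log2 CPM weighs the tested genes alike. It averaged 2.713 ± 0.208 in exercise and 2.578 ± 0.159 in control at day 10. At day 5 it was nearly the same in exercise (2.403 ± 0.133) and control (2.393 ± 0.0885).

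**Figure D2:**
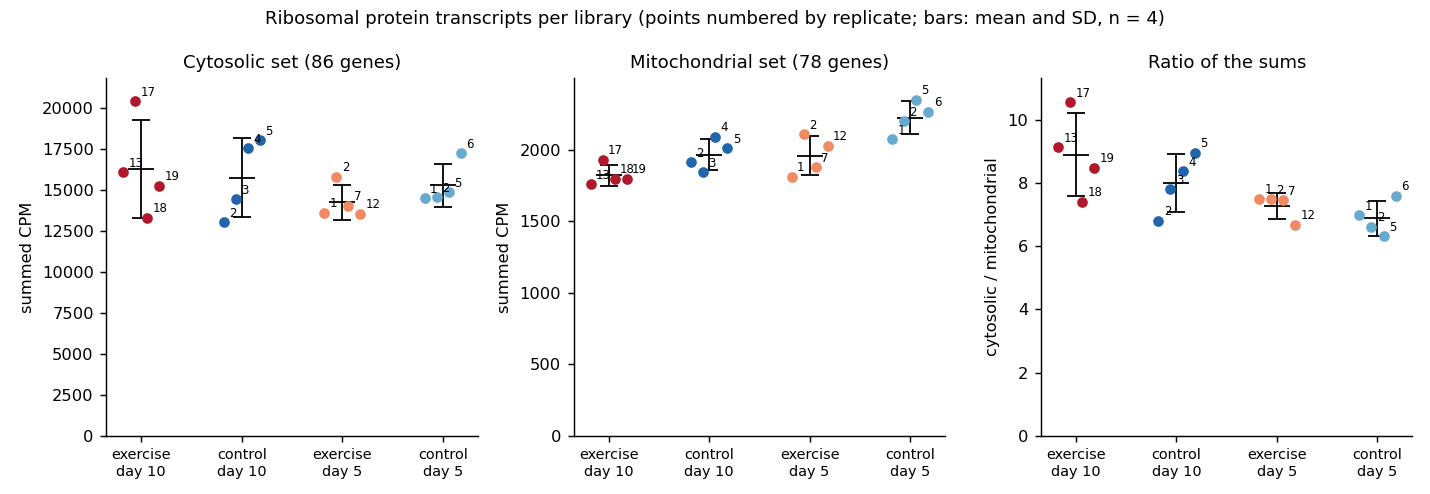
Summed CPM of the cytosolic set (left), of the mitochondrial set (middle) and their ratio (right), 1 point per library with its replicate number, grouped by condition and day; bars give the mean and SD of 4 libraries. Cytosolic sums spread from 13028 to 20409 CPM with overlap between groups, while mitochondrial sums stay between 1760 and 2350 CPM.

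Cytosolic genes moved together from library to library within a group. In control at day 10, 2, 16, 79 and 81 of the 83 tested genes lay above their group's mean in replicates 2, 3, 4 and 5. In exercise at day 10 the counts were 34, 81, 3 and 31 (replicates 13, 17, 18 and 19). At day 5 they were 15, 76, 40 and 23 in exercise (1, 2, 7 and 12) and 13, 26, 33 and 79 in control (1, 2, 5 and 6). Each group thus held at least 1 library in which nearly all cytosolic genes were high at once.

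After removal of the group means, the first principal component took 45.2% of the variance of the cytosolic genes, 24.2% of that of the mitochondrial genes and 14.9% of that of all 15096 tested genes; the smaller sets have fewer genes, so the last value is not on the same footing. The mean log2 CPM of the cytosolic set had an SD between replicates of 0.189, that of the mitochondrial set 0.086. In exercise replicate 17 at day 10, the library with the highest cytosolic sum, the TMM scaling factor was the lowest of the 16 (0.925), oligodendrocyte markers summed to 11750.7 CPM against 15237.3 to 26979.5 CPM in the other 3 exercise libraries of day 10, and proliferation markers to 329.5 CPM against 155.0 to 250.2 CPM. In every group the library with the highest cytosolic sum had the lowest scaling factor, which enters the effective library size under CPM. Beside replicate 17 these were control replicate 5 of day 10 (0.963), exercise replicate 2 of day 5 (0.973) and control replicate 6 of day 5 (0.989). As a share of all counts, which uses no scaling factor, the cytosolic set held 1.886% in replicate 17, against 1.379 to 1.641% in the other 3. The share was 1.535% in exercise replicate 2 (others 1.358 to 1.416%) and 1.704% in control replicate 6 (others 1.44 to 1.49%) of day 5. In control at day 10 it was 1.745% in replicate 4 and 1.735% in replicate 5. The part of the markers in the cytosolic level, and of the scaling beyond these shares, was not tested. The authors' deposited table for day 10 leaves exercise replicate 17 out.

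**Figure D3:**
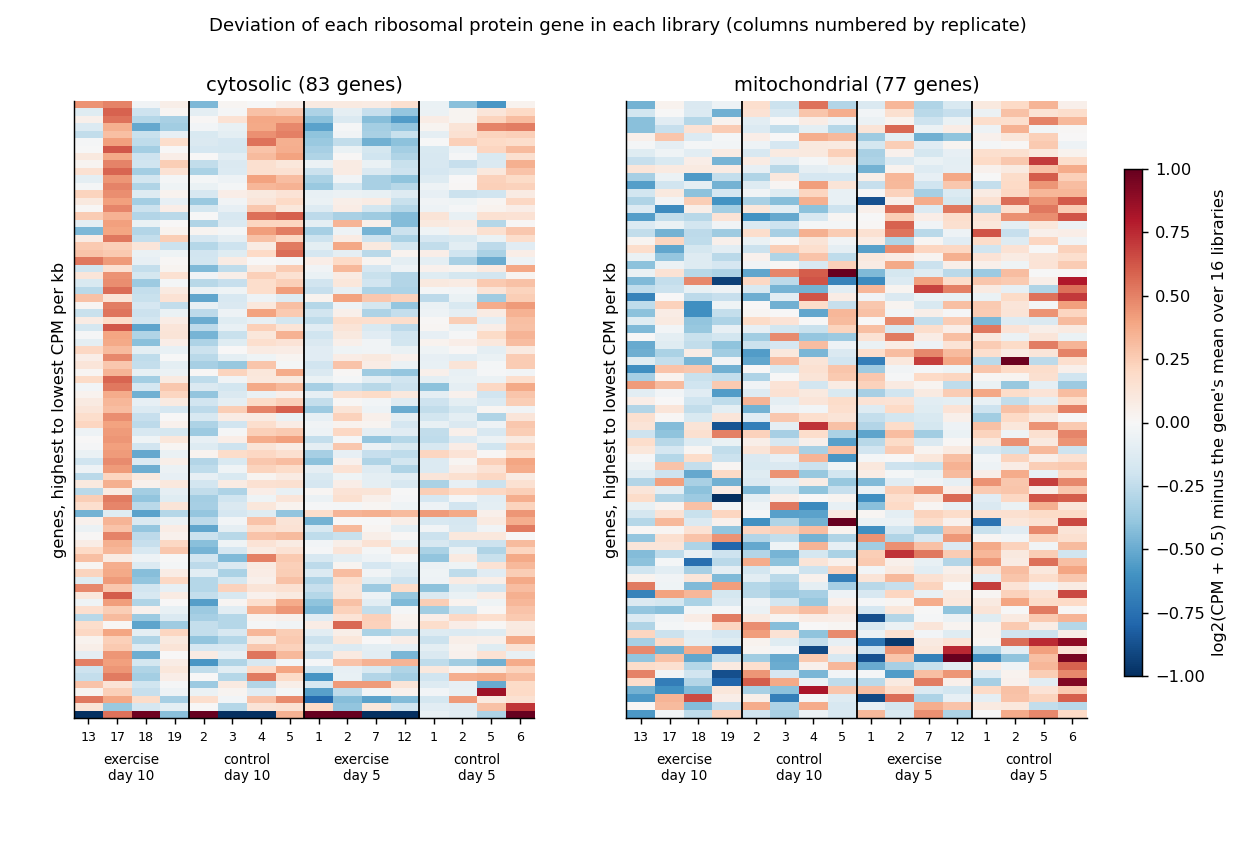
Each row is a tested gene (cytosolic left, mitochondrial right, ordered by CPM per kilobase) and each column a library numbered by replicate; color gives log2(CPM + 0.5) minus the gene's mean over 16 libraries, cut at 1 and -1. Whole columns of the cytosolic panel share a color, as in exercise replicate 17 at day 10 (81 of 83 genes above the group mean), and the mitochondrial panel is more mixed; the last cytosolic row is the low-count gene Rpl39l.

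Exercise against control at day 5 asks whether running was accompanied by a change in the ribosome genes early after demyelination. No gene of either set passed the edgeR quasi-likelihood test at an adjusted p of 0.05, and none of the 15096 genes did (0.00%). At an unadjusted p under 0.05, 17 of 83 cytosolic and 12 of 77 mitochondrial genes were counted, against 10.0% of all genes. Of these, 15 cytosolic and all 12 mitochondrial genes had lower values in exercise, against 5.12% of all genes, and 2 cytosolic genes had higher ones, against 4.90%. The cytosolic count was 7 without control replicate 5 of day 5 and 9 without exercise replicate 1 or 7; the mitochondrial count was 7 without exercise replicate 1 and 8 without control replicate 2, 5 or 6. The median log2 fold change was -0.10 over the cytosolic set, with 61 of 83 genes below 0, and -0.14 over the mitochondrial set, with 57 of 77 below 0, while it was 0.01 over all genes, of which 48.4% were below 0. Without control replicate 6 the cytosolic median was -0.04, with 49 of 83 below 0. Cytosolic genes with at most 10% of windows shared had a median of -0.04 (9 of 15 below 0), the others -0.13 (52 of 68 below 0). The 4 libraries of exercise lay wholly below those of control for 13 cytosolic and 9 mitochondrial genes, against 3.97% of all genes, and wholly above for 1 cytosolic gene (Rpl4) and no mitochondrial gene, against 3.33%.

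Rps15, a small-subunit protein near the decoding site, had 230, 250, 212 and 223 CPM in exercise, against 296, 350, 342 and 336 CPM in control. All 4 exercise libraries were below all 4 control libraries, with a log2 fold change of -0.53 (SE 0.16, edgeR adjusted p = 0.311). Rplp1, an acidic protein of the stalk that recruits elongation factors, had 226, 325, 258 and 250 CPM in exercise, against 334, 358, 462 and 467 CPM in control. Its groups did not overlap either (log2 fold change -0.61, SE 0.18, edgeR adjusted p = 0.32). The other stalk proteins did not share that size, as Rplp0 had a log2 fold change of 0.01 and Rplp2 of -0.14. Rpl36 and Rpl23a, both of the large subunit, had -0.54 and -0.40, and Rpl24 had -0.87 at a mean of 1.26 CPM in exercise and 2.30 CPM in control.

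In the other direction Rpl4 had 2164, 2163, 2148 and 2271 CPM in exercise, against 1938, 1524, 1353 and 2077 CPM in control. The exercise libraries lay close together above a wide control group (log2 fold change 0.34, SE 0.15, edgeR adjusted p = 0.471). Rps25 and Rpl39, which lines the exit tunnel, had log2 fold changes of 0.28 and 0.40 with overlapping groups. None of these genes passed the test.

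Among mitochondrial genes the smallest p belonged to Mrpl3, a large-subunit protein, with 124, 139, 147 and 144 CPM in exercise, against 177, 186, 250 and 174 CPM in control. The groups did not overlap, with replicate 5 of control far above the rest (log2 fold change -0.51, SE 0.13, edgeR adjusted p = 0.268). Mrpl12, the stalk protein of the mitochondrial ribosome that also binds mitochondrial RNA polymerase, had 5.87, 7.47, 7.91 and 7.64 CPM in exercise, against 11.3, 9.91, 13.5 and 11.6 CPM in control (log2 fold change -0.68, SE 0.21). Mrps10, Mrpl24 and Mrps30 had -0.89, -0.43 and -0.37, of which Mrps10 overlapped between groups. The largest positive value, 0.97 for Mrps26, rested on replicate 12 of exercise (52.3 CPM, against 4.06 to 9.63 CPM in the other 3) and was -0.58 without it. Mrps25, Mrpl18 and Mrps28 had 0.26, 0.34 and 0.32.

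The authors' deposited table for day 5, made in the layout of DESeq2 from these 8 libraries, calls 7 cytosolic and 5 mitochondrial genes at an adjusted p of 0.05, all lower in exercise, against 2.45% of the genes with an adjusted p there. In the authors' deposited table these are Rps15, Rps14, Rpl36, Rplp1, Rpl23a, Rpl27 and Rps3a1, and Mrpl3, Mrpl24, Mrpl12, Mrps30 and Mrps10. For Rps15 the authors' deposited table gives a log2 fold change of -0.54 with an adjusted p of 3.28e-05, and for Mrpl3 -0.51 with 0.0161. The edgeR fold changes of these genes lie close to those of the table, but the calls differ. At day 5 the lower values go with the lower depth and the higher mt-Rnr2 share of the exercise libraries, and with neuron markers that summed to 546.7 to 989.9 CPM in exercise, against 413.3 to 576.6 CPM in control. Of 9 neuron markers 7 had log2 fold changes above 0 (median 0.82), and none passed the test. The part of these in the result was not tested.

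At day 10 the same comparison called 29 of 15096 genes (0.192%) and none of the 83 cytosolic or 77 mitochondrial genes. At an unadjusted p under 0.05 there were 3 cytosolic genes, all with higher values in exercise, and 5 mitochondrial genes, 4 of them with lower values; the share of all genes was 12.8%, with 5.56% lower. The cytosolic count was 0 without exercise replicate 13, 9 without 17 and 13 without 18, and the mitochondrial count ranged from 1, without control replicate 5, to 8, without exercise replicate 17 or control replicate 2 or 3. The cytosolic median log2 fold change was 0.04, with 55 of 83 above 0 (52.1% of all genes), but it was -0.07, with 28 of 83 above 0, without exercise replicate 17, -0.05, with 29 above 0, without control replicate 2, and -0.02, with 39 above 0, without control replicate 3. The direction of the cytosolic median thus rests on single libraries. The mitochondrial median was -0.12, with 53 of 77 below 0 (47.9% of all genes), and -0.13 without exercise replicate 17. In the same comparison the values of all 8 oligodendrocyte markers (median -0.38) and all 6 astrocyte markers (median -0.35) were below 0 and those of all 10 proliferation markers above 0 (median 0.46), though none of them passed the test; their part was not tested. Mrps15 alone did not overlap between groups, against 3.30% of all genes that were higher in exercise without overlap and 2.58% that were lower.

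Rpl39 had 23.9, 22.4, 14.7 and 17.7 CPM in exercise, against 11, 13.5, 14.9 and 16.4 CPM in control. The ranges overlapped (log2 fold change 0.50, SE 0.20, edgeR adjusted p = 0.321). Rpl4 and Rpl8 had 0.34 and 0.26, and Rplp1, Rps13, Rpl27 and Rps27 had -0.33, -0.30, -0.25 and -0.26. Of the mitochondrial genes, Mrps21, Mrps7, Mrpl2 and Mrpl27 had -0.36, -0.62, -0.44 and -0.48, and Mrpl46, Mrpl37, Mrps15 and Mrps25 had 0.53, 0.43, 0.22 and 0.21. None passed the test. The authors' deposited table for day 10, from 7 libraries, calls no gene of either set, against 1.14% of all.

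**Figure D4:**
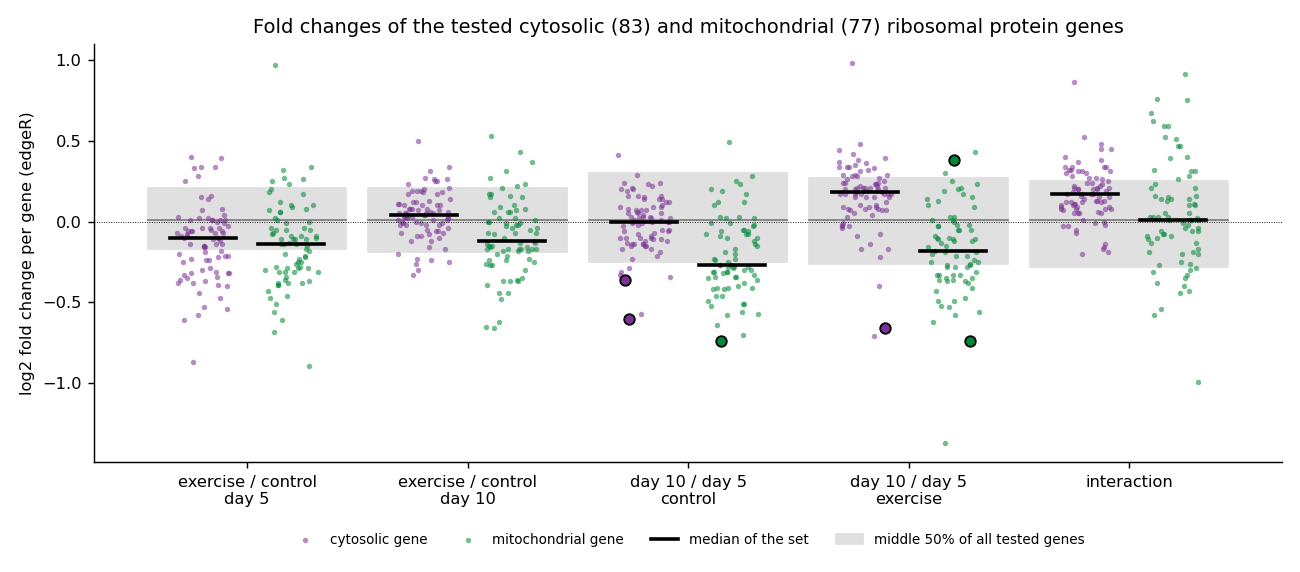
Log2 fold change of each tested cytosolic (purple) and mitochondrial (green) gene in the 4 comparisons and in the interaction; black lines mark the medians of the sets, large outlined points the genes past an adjusted p of 0.05, and grey bands the middle 50% of all tested genes. Mitochondrial medians lie below 0 in the 4 comparisons (-0.27 to -0.12), cytosolic medians between -0.10 and 0.18, and few points are outlined.

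Between day 10 and day 5 many genes passed the test, but few ribosomal protein genes were among them. In control, 12.3% of all genes were called between day 10 and day 5, but 2 of 83 cytosolic genes, Rps27l and Rps2, and 1 of 77 mitochondrial genes, Mrpl28, all 3 lower at day 10; over all genes 6.64% were called lower and 5.66% higher. In exercise, 10.1% of all genes were called, but 1 cytosolic gene, Rps27l again, lower at day 10, and 2 mitochondrial genes, Mrpl18, lower, and Mrpl24, higher; over all genes 4.90% were called lower and 5.17% higher. The mitochondrial count in control was 4 without exercise replicate 17 of day 10 and 3 without exercise replicate 1 of day 5, and 6 with DESeq2. In exercise it was 0 without replicate 13 or 19 of day 10 or replicate 7 of day 5, and 3 without replicate 18 of day 10. The cytosolic counts lay between 1 and 2 in both conditions when single libraries were left out.

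Rps27l, a relative of the zinc-finger protein Rps27 known as a p53 target, lies at chr9:66946086-66949516 on GRCm38. It had 23.3, 29.9, 22.3 and 26.6 CPM in exercise at day 10, against 36.7, 41.4, 41.9 and 40.7 CPM in exercise at day 5. Control libraries had 24.8, 29.0, 30.0 and 24.6 CPM at day 10, against 43.9, 42.4, 33.7 and 44.5 CPM at day 5. The days did not overlap in either condition. It fell with log2 fold changes of -0.66 in exercise (SE 0.13, edgeR adjusted p = 0.00339) and -0.60 in control (SE 0.13, edgeR adjusted p = 0.0045), and 8.07% of its windows are shared with other genes.

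Rps27 itself did not pass the test, with log2 fold changes of 0.22 in exercise and 0.41 in control. The CPM ratio of Rps27l to Rps27 was 0.352 to 0.492 in exercise at day 10, against 0.623 to 0.944 in exercise at day 5, and 0.266 to 0.490 in control at day 10, against 0.545 to 0.856 in control at day 5. The ratio was lower in all day 10 libraries than in all day 5 libraries of the same condition. A second pair behaved alike: the ratio of Rpl22l1 to Rpl22, relatives in the large subunit, was 0.137 to 0.211 in exercise at day 10, against 0.220 to 0.284 at day 5, and 0.133 to 0.174 in control at day 10, against 0.192 to 0.208 at day 5. Neither Rpl22l1 (-0.40 in exercise, -0.23 in control) nor Rpl22 (0.28 and 0.20) passed the test. The ratio of Rpl36al to Rpl36a overlapped between days in both conditions, and 84.6% of the windows of Rpl36a are shared. These ratios were not tested.

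Rps2, a small-subunit protein at the mRNA entry channel (chr17:24718116-24721929), had 68.6, 65.7, 85.3 and 77.5 CPM in control at day 10, against 96.9, 93.6, 94.4 and 95.9 CPM in control at day 5. The day 5 libraries were tight and all above those of day 10 (log2 fold change -0.36, SE 0.11, edgeR adjusted p = 0.0326). In exercise it had 67.5, 86.4, 64.3 and 76.6 CPM at day 10, against 82.4, 89.8, 88.9 and 81.3 CPM at day 5, with overlap (-0.22, edgeR adjusted p = 0.209). The call in control was lost when any 1 control library of day 5 was left out, and without control replicate 2 or 3 of day 10; 49.44% of its windows are shared.

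Mrpl28, a large-subunit protein of the mitochondrial ribosome (chr17:26123500-26126613), had 12.5, 13.3, 17 and 19.4 CPM in control at day 10, against 21.2, 26.4, 26.6 and 29.7 CPM in control at day 5. The days did not overlap, and it fell with a log2 fold change of -0.74 (SE 0.17, edgeR adjusted p = 0.00881). In exercise it had 12.9, 16, 15.7 and 21 CPM at day 10, against 19.1, 22.8, 20.1 and 21.6 CPM at day 5 (-0.35, edgeR adjusted p = 0.216).

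Mrpl18, known in human cells for bringing 5S ribosomal RNA to mitochondria (chr17:12911349-12916345), had 3.82, 4.39, 5.05 and 4.57 CPM in exercise at day 10, against 6.41, 9.12, 7.91 and 6.45 CPM in exercise at day 5. The groups were apart (log2 fold change -0.74, SE 0.21, edgeR adjusted p = 0.0301). The call was lost without replicate 13 or 19 of day 10 or replicate 2 or 7 of day 5. In control the value was -0.49 (edgeR adjusted p = 0.138).

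Mrpl24, of the large subunit (chr3:87919506-87923672), had 116, 135, 101 and 110 CPM in exercise at day 10, against 86.9, 104, 79.8 and 84.0 CPM in exercise at day 5. The highest library of day 5 lay within the range of day 10 (log2 fold change 0.38, SE 0.12, edgeR adjusted p = 0.0455). The call lay close to the threshold and was lost under 14 of 23 alternatives, among them without exercise replicate 17. In control the value was 0.10.

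**Figure D5:**
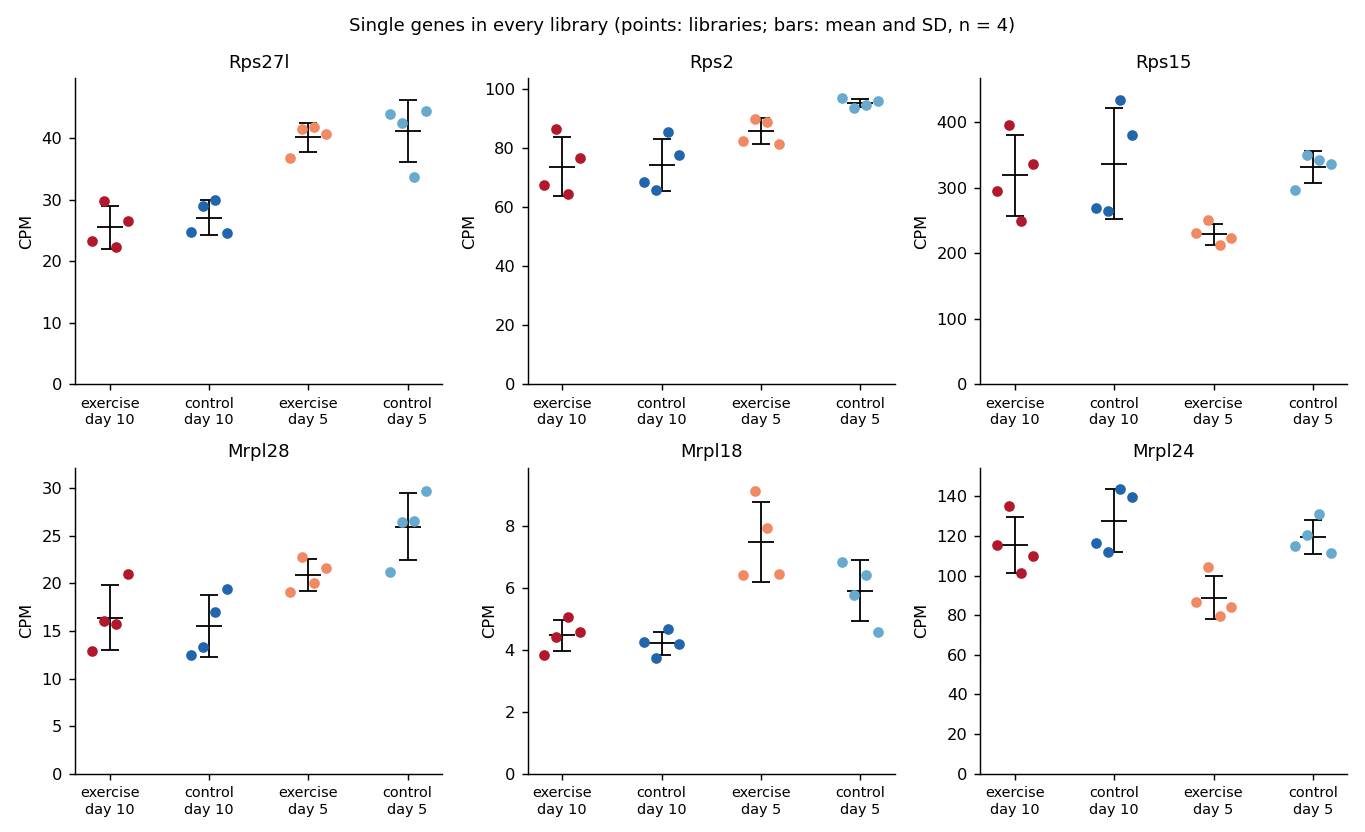
CPM of Rps27l, Rps2, Rps15, Mrpl28, Mrpl18 and Mrpl24 in every library, by condition and day, with the mean and SD of 4 libraries. The Rps27l libraries of day 10 (22.3 to 30.0 CPM) lie below all of day 5 (33.7 to 44.5 CPM) in both conditions, and the exercise libraries of day 5 are the lowest of Rps15 (212 to 250 CPM).

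Over the whole sets, the cytosolic median log2 fold change between day 10 and day 5 was 0.00 in control, with 42 of 83 above 0 (51.2% of all genes), and 0.18 in exercise, with 69 of 83 above 0 (50.6% of all genes). Without exercise replicate 17 the exercise value was 0.05, with 54 of 83 above 0. The mitochondrial median was -0.27 in control, with 63 of 77 below 0 (48.8% of all genes), and -0.18 in exercise, with 58 of 77 below 0 (49.4%). In both comparisons 49 of 77 mitochondrial genes were below 0, and 5 were above in both. Most of these genes were below 0 in each comparison, so many fall below 0 in both even where single genes do not go together. Of the cytosolic genes 42 were above 0 in both and 14 below. Agreement gene by gene was not tested. The median was -0.20 for the large and -0.11 for the small mitochondrial subunit in exercise, and -0.27 and -0.17 in control; the difference between subunits was not tested.

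At an unadjusted p under 0.05, 19 mitochondrial and 5 cytosolic genes were counted in control, against 26.9% of all genes. Lower values at day 10 were found in 18 mitochondrial genes in control (13.7% of all genes) and 14 in exercise (12.7% of all genes). In exercise 17 cytosolic genes were counted, against 25.8% of all genes. Of these, 15 had higher values at day 10, against 13.1% of all genes, and 2 had lower ones. The days did not overlap for 14 mitochondrial and 4 cytosolic genes lower at day 10 in control, against 10.7% of all genes (9.33% higher, and no member), and for 8 and 1 in exercise, against 7.09%. Next to Mrpl28 in control stood Mrps10, Mrpl12 and Mrps30 with -0.70, -0.64 and -0.32 (edgeR adjusted p = 0.0527, 0.0535 and 0.061), and next to Mrpl18 in exercise stood Mrpl34, Mrpl42 and Mrps28 with -0.62, -0.49 and -0.58. On the positive side Mrps7 had 0.49 in control and Mrpl38 had 0.43 in exercise. Of the cytosolic genes Rps15, Rpl24, Rpl21 and Rpl36 had 0.48, 0.98, 0.37 and 0.42 in exercise, the first with an edgeR adjusted p of 0.0575; Rpl21, Rpl7 and Rpl22 had 0.29, 0.22 and 0.20 in control, and Rpl8 and Rpl41 had -0.34 and -0.31. None of these passed the test.

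No gene passed the test of whether the exercise effect differed between day 10 and day 5 (0.00% of all genes); at an unadjusted p under 0.05 there were no cytosolic and 4 mitochondrial genes, all 4 with values above 0, against 9.11% of all genes (4.77% above 0 and 4.35% below). The cytosolic median of this interaction was 0.17, with 72 of 83 above 0 (51.6% of all genes), and 0.05 without exercise replicate 17, with 55 of 83 above 0. The mitochondrial median was 0.01. Mrps15, of the small subunit, had 46.9, 45.9, 45.9 and 45.8 CPM in exercise at day 10, against 40.9, 35.5, 40.5 and 41.1 CPM in control at day 10. At day 5 it had 31.0, 44.2, 39.5 and 40.5 CPM in exercise, against 44.6, 46.1, 53.0 and 55.9 CPM in control. Exercise was thus wholly above control at day 10 and wholly below it at day 5, with an interaction of 0.59 (SE 0.16, unadjusted p = 0.0021, edgeR adjusted p = 0.423). Mrps10, Mrpl37 and Mrpl12 followed with 0.91, 0.75 and 0.67, and Mrpl43, Mrpl49, Mrpl9 and Mrpl27 had -0.58, -0.40, -0.31 and -0.44; in the cytosolic set Rps15, Rpl10a, Rpl18 and Rpl24 had 0.45, 0.45, 0.52 and 0.86.

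Genes that work with the ribosomes were read for comparison. Their counts stand against 4.90% of all genes called lower and 5.17% called higher at day 10 in exercise, and 6.64% lower and 5.66% higher in control. Of 22 nuclear genes of the respiratory chain, 7 were lower at day 10 than at day 5 in exercise and 3 in control, and none was higher, with medians of -0.35 and -0.16. Cyc1, cytochrome c1 of complex III, fell in both (-0.54, edgeR adjusted p = 0.00542 in exercise, and -0.46, edgeR adjusted p = 0.011 in control), as did Atp5b, the beta subunit of ATP synthase (-0.39 and -0.31), and Cox7a2. Of 28 factors of mitochondrial translation and ribosome assembly, none was called in either. Of 17 mitochondrial aminoacyl-tRNA synthetases, Cars2 was lower at day 10 in control and Tars2 was higher at day 10 in exercise. Of 13 respiratory chain genes of the mitochondrial genome, 9 were tested and none was called. Their median for exercise against control was 0.35 at day 5, with 8 of 9 above 0 (51.6% of all genes), in libraries that also held the higher mt-Rnr2 share, and 0.03 at day 10. Between day 10 and day 5 it was -0.18 in exercise, with 8 of 9 below 0, and 0.19 in control, with 8 of 9 above 0. Of 5 mitochondrial ribosomal proteins named otherwise, Chchd1 was lower in exercise (-0.56) and Ptcd3 in control (-0.46).

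Of 31 genes of ribosome biogenesis and RNA polymerase I, the transcription factor Myc was the only one called, lower at day 10 in control (-0.73, edgeR adjusted p = 0.0215). Of 22 tested translation factors and other TOP mRNAs, Eif4a1, Eif2s1 and Eif4e, all of translation initiation, were lower at day 10 in control (-0.67, -0.70 and -0.54), and Eif4b was higher at day 10 in exercise (0.50). Of 17 genes of the mTOR pathway, 3 were higher and 2 lower at day 10 in control, and 3 were higher in exercise; Rptor, the scaffold of the first mTOR complex, rose in both (0.53 in exercise and 0.42 in control). Among regulators of mitochondrial biogenesis, Ppargc1a, a coactivator of respiratory genes, rose at day 10 in control (1.21, edgeR adjusted p = 0.00783) and Yy1 fell (-0.32); in exercise the helicase gene Twnk rose (0.64). Between exercise and control, the only call in these lists was Cox6c, of complex IV, lower in exercise at day 10 (-0.62, edgeR adjusted p = 0.0424). It was lost in a fit of the 2 groups alone, where no gene passed between exercise and control at day 10. The same held without control replicate 2 or 3 or exercise replicate 17 or 19 of day 10, or control replicate 2 of day 5.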

How the data were processed

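Poly(A)-selected RNA of microdissected lesions was measured in 16 libraries. The submitters' processing notes name GRCm38 as the build and Bowtie 1.1.2, TopHat2 2.0.10 and FastQC 0.11.4 as tools. The deposited raw counts per gene come from featureCounts 1.5.0-p1, counting the gene's own strand without reads of several places, per the file headers. The authors' comparison tables give log2 fold changes and p-values, per the file headers, and the notes name DESeq2 1.12.4. Files of normalized values were not used.

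Symbols come from GENCODE on GRCm38 (45229 of 46078 genes named). The test on counts was that of edgeR 4.0.16 (R 4.3.3): filterByExpr (minimum count 10, total 15; 15096 genes), TMM scaling, and a robust quasi-likelihood fit with 1 mean per group over 16 libraries (12 residual degrees of freedom, common biological coefficient of variation 0.236). Adjusted p-values are Benjamini-Hochberg over all tested genes, with a threshold of 0.05. CPM use effective library sizes. The scripts were tested on simulated data. limma 3.58.1 and DESeq2 1.42.0 served as alternatives, beside other scalings, no filter, a fit on the groups compared and leaving out each library. A further alternative was a replicate block, fitted only on libraries whose replicate number the compared groups share. No 2 replicates were alike (smallest chi-square per degree of freedom 9.32). In each set, comparison and direction the called genes are named, filled to 4 by smallest p (1 gene is not reported here), with a fixed list of members and the 3 highest and lowest levels. Genes and lists were chosen with earlier results of these data known. Library totals were 8.13 to 13.93 M counts, and replicate spread, not counting error, limits most values.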

Additional observations from a re-analysis of the deposited data

Results flagged for a closer look

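Among 280 groups of 4 libraries (67 genes and the set sums and ratio), 14 (5%) held a library whose gap to the nearest other was over Dixon's critical share of the group's range; chance gives about 1 in 20. For the sets, replicate 6 of control at day 5 had a cytosolic sum of 17251 CPM (others 14498 to 14880), and replicate 12 of exercise at day 5 a ratio of cytosolic to mitochondrial sum of 6.68 (others 7.47 to 7.51). In exercise at day 10, replicate 17 was high for Mrpl12 (10.9 CPM, others 5.68 to 6.52) and Rplp0 (419.5 CPM, others 296.4 to 316.4), and replicate 13 for Mrps15 (46.9 CPM, others 45.8 to 45.9). In control at day 10, Mrps15 was low in replicate 3 (35.5 CPM, others 40.5 to 41.1) and Rpl4 in replicate 2 (1491 CPM, others 2029 to 2132).

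In exercise at day 5, replicate 12 was high for Mrps26 (52.3 CPM, others 4.06 to 9.63) and Rpl4 (2271 CPM, others 2148 to 2164), and replicate 1 was low for Rpl8 (65.3 CPM, others 87.8 to 88) and Rplp2 (59.9 CPM, others 82.7 to 86.7). In control at day 5, Mrpl3 was high in replicate 5 (249.9 CPM, others 174.2 to 185.9), and Rpl39l (4.0 CPM, others 0.802 to 1.03) and Rps6 (140.2 CPM, others 109.0 to 111.9) in replicate 6.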

How the results depend on the processing

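For 80 named results, 1853 values under alternatives gave 1790 on the same side of 0 and of the threshold, 30 calls lost, 31 gained and 2 reversed: Mrps26 at day 5 (-0.58 without exercise replicate 12; -0.58 to 1.37 over all left-out libraries) and the interaction of Rps3 (0.0 without control replicate 5 of day 10; -0.30 to 0.0 over all left-out libraries). Most of the named results did not pass the edgeR test to begin with, so for these the same side mostly means that they stayed uncalled. The 30 lost calls all belong to the few results that had passed, given at the end. At day 5, DESeq2 called 3 mitochondrial genes for exercise, beside 31 higher and 48 lower of 26204 genes. Between days in control, cytosolic calls numbered 1 with no filter on low counts and 1 among genes with at most 10% of windows shared (an alternative chosen after seeing the data), and mitochondrial calls 6 with DESeq2 (1126 genes higher and 1250 lower over all), 3 with limma-voom (922 and 1062 of 15096) and 4 with the 2 groups alone (1042 and 1152 of 14467). Between days in exercise, cytosolic calls numbered 3 with DESeq2 (1104 and 1018 over all) and 3 with total counts only (738 and 774), and mitochondrial calls 0 with no filter (637 and 611 of 26253) and 0 with the 2 groups alone (436 and 420 of 14303). Replicate numbers 1 and 2 are shared by the groups of day 5, and 2 and 5 by the control groups. Correlations of deviations between libraries of the same number were 0.069, -0.029, 0.056 and 0.017. These show no pairing by number but are too few to exclude it, and the labels do not give one. With the replicate block 0 cytosolic and 0 mitochondrial calls were left in control. Calls over all genes then numbered 146 higher and 187 lower of 14667, against 855 and 1003 of 15096 without it. The log2 fold changes were -0.61 for Rps27l, -0.76 for Mrpl28 and -0.37 for Rps2. The block was fitted only on the libraries with these shared numbers, so the smaller number of libraries and the block itself cannot be told apart. In that fit the cytosolic median for exercise at day 5 was 0.03, with 45 of 83 above 0, so its direction turned. There 8 cytosolic and 8 mitochondrial genes had an unadjusted p under 0.05. Leaving out each library in turn, between-day calls ranged from 1 to 2 (cytosolic, control), 1 to 2 (cytosolic, exercise), 1 to 4 (mitochondrial, control; 4 without exercise replicate 17 of day 10, 3 without exercise replicate 1 of day 5) and 0 to 3 (mitochondrial, exercise; 0 without replicates 13 or 19 of day 10 or 7 of day 5, 3 without 18 of day 10), and exercise and interaction calls stayed at 0. Medians ranged, for the cytosolic set, from -0.18 to -0.04 (exercise, day 5), -0.07 to 0.12 (exercise, day 10), -0.07 to 0.08 (days, control), 0.05 to 0.27 (days, exercise) and 0.05 to 0.23 (interaction), and for the mitochondrial set from -0.20 to -0.09, -0.16 to -0.08, -0.28 to -0.16, -0.21 to -0.14 and -0.02 to 0.09. The fall of Rps27l in exercise passed under all 23 alternatives (adjusted p 5.29e-05 to 0.0178). These do not include the block, since the exercise groups of day 10 and day 5 share no replicate number. The fall of Rps27l in control and that of Mrpl28 were lost under 1 of 24, the block. The call of Rps2 was lost under 8 of 24, that of Mrpl18 under 6 of 23 and that of Mrpl24 under 14 of 23. The cause was not tested.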
